A study of Mus musculus with 5 samples.

Results

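PU.1 binding was examined at the genes of 10 transcription factors known from blood stem and progenitor cells: Gata1, Gata2, Tal1, Lmo2, Lyl1, Gfi1, Gfi1b, Myb, Meis1 and Hhex. The genes were chosen by name, and a locus was the gene's span in mm10 with 50 kb on each side. The data are chromatin immunoprecipitation sequencing (ChIP-seq) read counts, deposited for 329996 genomic windows of 10 bp on a grid of 50 bp. The 10 loci held 485 of these windows, and 419 of the 286435 windows with enough counts to be tested. Joining tested windows with gaps of up to 100 bp gave 82 sites in the 10 loci of 60527 in all.

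PU.1 libraries were made from mouse plasmacytoid dendritic cells (pDCs, 2 biological replicates) and conventional dendritic cells (cDCs, 2 biological replicates). A single input library of chromatin without precipitation came from cDCs. All cells came from Flt3L cultures, the strain is labelled C56BL/6, no other treatment or genetic change is given, and the way the cell types were separated is not given in the sources used here. Type I interferon is the best known product of pDCs, whereas cDCs present antigen to T cells.

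PU.1, encoded by Spi1, is an ETS-family factor that binds DNA around a GGAA core and is needed for the myeloid and dendritic cell lineages. The members act mostly earlier, in stem and progenitor cells and in the erythroid, megakaryocyte and mast cell lineages. TAL1 or LYL1, paired with an E protein, is joined to a GATA factor by LMO2 in one DNA-binding complex. GATA1 and PU.1 are a textbook pair of opposing factors in the choice between erythroid and myeloid fate. GFI1 and GFI1B repress transcription through a histone demethylase complex, MYB keeps progenitors proliferating, and MEIS1 and HHEX are homeodomain proteins of stem and early progenitor cells.

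A PU.1 site lay over the promoter of 2 members, Lyl1 and Gfi1b, and these promoters are printed to show what letters lie under the signal. Each run is the 250 bases before the gene's RefSeq start in GRCm38.p6, the assembly behind mm10, on the gene's own strand. Capitals mark every GGAA, the ETS core, read on either strand, so that TTCC is the core on the other strand.
Lyl1 promoter, chr8:84701207-84701456, plus strand: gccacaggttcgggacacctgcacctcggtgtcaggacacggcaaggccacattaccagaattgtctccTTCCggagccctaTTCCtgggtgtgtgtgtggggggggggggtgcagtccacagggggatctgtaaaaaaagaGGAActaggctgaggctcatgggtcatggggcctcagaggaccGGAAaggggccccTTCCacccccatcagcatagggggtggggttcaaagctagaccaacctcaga
Gfi1b promoter, chr2:28621983-28622232, minus strand: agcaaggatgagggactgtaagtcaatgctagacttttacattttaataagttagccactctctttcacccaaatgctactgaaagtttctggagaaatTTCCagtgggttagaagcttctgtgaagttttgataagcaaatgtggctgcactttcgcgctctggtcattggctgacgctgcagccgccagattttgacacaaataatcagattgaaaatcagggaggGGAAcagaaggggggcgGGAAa
The PU.1 site at the Lyl1 start covered 206 of these 250 bases, and the site at the Gfi1b start covered 128. The Lyl1 promoter held 5 ETS cores and the Gfi1b promoter 3, and 93.4% of the 32851 mouse promoters of this length in the RefSeq table held at least 1, with a median of 3. Neither held the longer PU.1-type GAGGAAG, which contains GGAA and occurs in 10.6% of the promoters, or the GATA-type AGATAA, which occurs in 9.99%. Only these exact letters were counted, on either strand. The Lyl1 promoter holds GAGGAAC and the Gfi1b promoter holds TGATAA, each 1 base away from the counted letters. Such variants were not counted, so the absence of PU.1 or GATA binding sequences is not shown. The E-box CANNTG, the kind of letters that TAL1 and LYL1 complexes bind, was found 1 time in the Lyl1 promoter and 2 times in the Gfi1b promoter, and 66.2% of promoters hold it on either strand. In all, 9 of the 10 members (all but Lmo2) matched the table, with 12 promoters, and no site lay over the matched promoters of the other 7 of these genes.

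Total counts over all windows were 8099633 and 6896416 in pDC replicates 1 and 2, 11034858 and 11388554 in cDC replicates 1 and 2, and 2776490 in the input. A read can count in several neighbouring windows, so these totals overstate the number of reads, and the true depth is unknown. The pDC pair differed more between its replicates, with a mean chi-square per window of 3.18, against 1.44 for the cDC pair, where counting error alone gives about 1. Windows that reach 1000 input counts, called repeat windows here, held 10.1% and 18.0% of the counts in pDC replicates 1 and 2, 10.5% and 9.15% in cDC replicates 1 and 2, and 74.6% in the input. ChIP-seq measures no expression, so the cell labels could only be set beside PU.1 signal at marker loci. Among 8 pDC marker loci the call was for pDCs at 5 and for cDCs at 1, and among 8 cDC marker loci for pDCs at 1 and for cDCs at 2, beside 11.4% of all 17791 loci called for pDCs and 10.6% called for cDCs. Of other cell types, 4 of 5 B cell marker loci were higher in pDCs, 1 of 5 T and NK cell marker loci was higher in cDCs, and none of 5 macrophage and neutrophil marker loci was called. The part of other cells in the results below was not tested.

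PU.1 signal was higher in pDCs around Tal1, Lyl1 and Myb and higher in cDCs around Gfi1b, while the other 6 loci were not called different. Gfi1b in pDCs stood at 0.57 times its cDC level, and the 3 loci higher in pDCs stood 1.25-fold to 1.39-fold above cDCs. Called means an adjusted p below 0.05 in the quasi-likelihood test of edgeR, fitted over all 17791 gene loci, with n = 2 libraries per cell type. The 3 of 10 loci higher in pDCs stand beside 11.4% of all loci, and the 1 of 10 higher in cDCs beside 10.6%. Both pDC libraries lay above both cDC libraries at 6 of the 10 loci, as at 31.9% of all loci, and both cDC libraries lay above both pDC libraries at 2, as at 31.6%. The median log2 fold of the 10 loci, pDC minus cDC, was 0.22, against 0.01 over all loci. Signal is given as CPM, counts scaled to a common library size, and in bulk libraries fewer cells with a bound site and less binding per cell cannot be told apart.

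**Figure D1:**
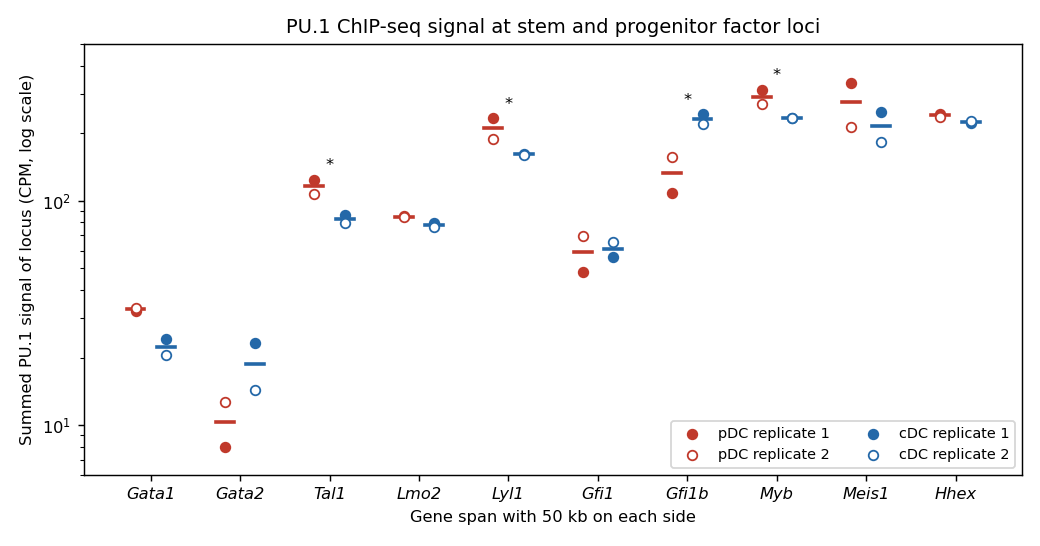
Summed PU.1 signal of each locus (y axis, CPM, log scale) in every library, for the 10 genes with 50 kb on each side (x axis); bars are the means of 2 libraries, and stars mark the called loci. The pDC points sit apart above the cDC points at Tal1, Lyl1 and Myb and below them at Gfi1b. They also sit above at Gata1, Lmo2 and Hhex and below at Gata2, which were not called. At Meis1 and Gfi1 the points of the cell types interleave.

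The locus calls changed with the scaling of the libraries and with the way windows were given to genes. Scaling by library size without TMM factors moved the median log2 fold of all windows to -0.11 and of all loci to -0.08, and the calls of Tal1, Lyl1 and Myb ended (0.40, 0.32 and 0.24; edgeR adjusted p = 0.0872, 0.168 and 0.262). When the repeat windows set the library sizes, the median of all loci moved to -0.46 and all 4 calls ended: Tal1 was at 0.05, Lyl1 at -0.02, Myb at -0.11 and Gfi1b at -1.35 (edgeR adjusted p = 0.981, 0.991, 0.958 and 0.874). With each window given only to its nearest gene all 4 calls ended as well, with Tal1 at 0.28, Lyl1 at 0.42, Gfi1b at -0.39 and Myb at 0.21 (edgeR adjusted p = 0.283, 0.223, 0.267 and 0.276). The Wald test of DESeq2 called the same 4 loci.

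At the GATA factor genes the signal was low and neither locus was called. Gata1, the erythroid and megakaryocyte master regulator, had 32.3 and 33.3 CPM in pDC replicates 1 and 2, against 24.1 and 20.4 CPM in cDC replicates 1 and 2. The groups did not overlap, but the log2 fold of 0.56 ± 0.22 (SE) missed the threshold (edgeR adjusted p = 0.0848). Gata1 was the only locus without a called site. Its 2 sites lay inside the gene span, and the stronger one, at +3.90 kb from the start (chrX:7963801-7964160), had 5.80 and 3.70 CPM in pDCs, against 2.56 and 2.59 CPM in cDCs. Here and below, a site's CPM, counts and log2 fold are those of its strongest window. Its place is the distance of that window from the RefSeq start in the gene's direction. The adjusted p of a site combines all its windows, so it can differ from that of the strongest window. The site's log2 fold was 0.90 ± 0.34 (edgeR adjusted p = 0.105), and 2 of the locus's 12 windows passed on their own as higher in pDCs. Without pDC replicate 2 the site's log2 fold was 1.17, from a fit with a lone pDC library whose spread comes from the cDC pair. That setting raised the number of calls over all sites and all loci.

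Gata2, which maintains stem cells and mast cells, had the lowest signal of the members. Its locus held 8.02 and 12.6 CPM in pDCs, against 23.1 and 14.4 CPM in cDCs, and from 64 to 250 counts in a library. Both cDC libraries were above both pDC libraries, and the log2 fold was -0.87 ± 0.34 (edgeR adjusted p = 0.0840). The call was gained with library-size scaling (-0.96, edgeR adjusted p = 0.0441) and with no filter on low counts (-0.89, adjusted p = 0.0460). It was also gained for windows at least 2-fold over input (-1.25, adjusted p = 0.0329). Without pDC replicate 2 the log2 fold of the locus was -1.22. With totals as library sizes, none of the 3 Gata2 sites stood above the input in either cell type, whereas library sizes from the repeat windows put all 3 above it in cDCs. The strongest, at -19.5 kb, averaged 1.96 CPM and was not called (-0.79 ± 0.45, edgeR adjusted p = 0.151). The site at -9.04 kb (chr6:88184801-88184910), named after its values were seen, had 0.527 and 0.643 CPM in pDCs, against 3.02 and 1.55 CPM in cDCs, from 4 and 4 counts, against 33 and 18. It was called higher in cDCs (-1.95 ± 0.57, edgeR adjusted p = 0.0453), and the call ended without pDC replicate 1 (-1.80, adjusted p = 0.120) and without cDC replicate 1 (-1.40, adjusted p = 0.854).

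Tal1 encodes the basic helix-loop-helix factor that sets up blood stem cells, and its locus was 1.39-fold higher in pDCs. The summed signal was 124 and 108 CPM in pDC replicates 1 and 2, against 86.6 and 79.9 CPM in cDC replicates 1 and 2, so the groups did not overlap (log2 fold 0.48 ± 0.13, edgeR adjusted p = 0.0227). The call ended without cDC replicate 1 (0.53, adjusted p = 0.129) and without cDC replicate 2 (0.42, adjusted p = 0.254), where the lone cDC library is assumed to vary like the others. By the gene span alone the Tal1 log2 fold was 1.69 (edgeR adjusted p = 0.0106).

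Of the 4 Tal1 sites 2 were called, both higher in pDCs. The site at -8.37 kb (chr4:115047901-115048160) had 12.9 and 9.17 CPM in pDCs, against 6.13 and 4.84 CPM in cDCs (1.02 ± 0.26, edgeR adjusted p = 0.0116). The site at +0.58 kb, inside the gene (chr4:115056901-115057110), had 4.09 and 2.41 CPM in pDCs, against 0.823 and 1.12 CPM in cDCs (1.74 ± 0.45, edgeR adjusted p = 0.0116). Neither site's groups overlapped. The strongest site, at +19.3 kb (chr4:115075551-115075910), lies where the known +19 stem cell enhancer of Tal1 is placed. It had 13.3 and 11.4 CPM in pDCs, against 11.6 and 10.2 CPM in cDCs, and the groups overlapped (0.19 ± 0.23, edgeR adjusted p = 0.849). At +39.9 kb, near the place of the known +40 erythroid enhancer, the site had 1.98 and 3.06 CPM in pDCs, against 3.57 and 1.38 CPM in cDCs (0.01 ± 0.44, edgeR adjusted p = 1.00). The site at -8.37 kb made up 40.5% and 33.6% of the locus signal in pDCs, against 27.7% and 24.7% in cDCs, and the +19 site 42.0% and 46.1% in pDCs, against 52.6% and 62.6% in cDCs. Left-out libraries ended both site calls. At -8.37 kb the log2 fold was 0.74 without pDC replicate 1, 1.19 without cDC replicate 1 and 0.85 without cDC replicate 2 (edgeR adjusted p = 0.136, 0.134 and 0.279). At +0.58 kb it was 1.29, 1.53 and 1.98 without the same libraries (edgeR adjusted p = 0.0945, 0.215 and 0.0677).

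Lyl1, the close relative of Tal1, had the largest number of sites, 17, and its locus was 1.31-fold higher in pDCs. It had 234 and 188 CPM in pDC replicates 1 and 2, against 162 and 160 CPM in cDC replicates 1 and 2, with no overlap (0.39 ± 0.12, edgeR adjusted p = 0.0342). The call ended without pDC replicate 1 (0.22, adjusted p = 0.0895), without cDC replicate 1 (0.39, adjusted p = 0.221) and without cDC replicate 2 (0.39, adjusted p = 0.230). It also ended when windows had to average 30 counts (0.35, edgeR adjusted p = 0.177) and for the span without flanks (0.46, adjusted p = 0.317). The locus also holds Ier2, Nacc1, Trmt1 and Nfix, so its windows are not those of Lyl1 alone.

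The site over the printed Lyl1 promoter (chr8:84701251-84701860), a promoter known to work through ETS and GATA sites in blood progenitors, was not called. It had 6.46 and 3.70 CPM in pDCs, against 3.75 and 4.15 CPM in cDCs, with overlap between the groups (0.38 ± 0.32, edgeR adjusted p = 0.583). The neighbouring site at -1.40 kb (chr8:84699851-84700210) was called higher in pDCs, with 6.46 and 3.22 CPM in pDCs, against 2.29 and 1.64 CPM in cDCs (1.32 ± 0.37, edgeR adjusted p = 0.00661). Its call ended without pDC replicate 1 (0.71, edgeR adjusted p = 0.0588) and without cDC replicate 2 (1.09, adjusted p = 0.0612). A second called site, at -39.0 kb inside the span of Ier2, an immediate early gene, had 11.1 and 7.08 CPM in pDCs, against 4.30 and 5.53 CPM in cDCs (0.90 ± 0.28, edgeR adjusted p = 0.0388). This call ended without pDC replicate 1 (0.52), cDC replicate 1 (0.72) or cDC replicate 2 (1.09) (edgeR adjusted p = 0.109, 0.600 and 0.225), and with library-size scaling (0.77, adjusted p = 0.0898). The strongest site, at -12.2 kb inside the span of Trmt1, a tRNA methyltransferase gene, had 8.97 and 5.95 CPM in pDCs, against 7.77 and 7.26 CPM in cDCs, and its log2 fold lay at zero (0.00 ± 0.26, edgeR adjusted p = 0.409).

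Lmo2, the bridging protein of the complex, was not called as a locus, and 1 of its 9 sites was. The locus had 85.2 and 84.7 CPM in pDCs, against 79.6 and 76.4 CPM in cDCs, a small gap without overlap (0.12 ± 0.13, edgeR adjusted p = 0.545). Inside the gene span, the site at chr2:103965551-103965810 had 6.46 and 5.31 CPM in pDCs, against 2.10 and 2.68 CPM in cDCs (1.30 ± 0.32, edgeR adjusted p = 0.0245). Close by and also inside the span, the strongest site of the locus (chr2:103970001-103970310) had 8.04 and 7.72 CPM in pDCs, against 9.05 and 7.86 CPM in cDCs (-0.10 ± 0.25, edgeR adjusted p = 0.997). The called site held 28.2% and 23.6% of the locus signal in pDCs, against 10.1% and 14.1% in cDCs. Its call ended without pDC replicate 1 (1.14, edgeR adjusted p = 0.0952), without cDC replicate 1 (1.13, adjusted p = 0.417) and without cDC replicate 2 (1.48, adjusted p = 0.0612).

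The paralogous repressor genes Gfi1 and Gfi1b differed in their calls, though the difference between them was not tested. Gfi1b, which acts in stem, erythroid and megakaryocyte cells, was lower in pDCs, with 109 and 156 CPM in pDC replicates 1 and 2, against 243 and 220 CPM in cDC replicates 1 and 2. The groups did not overlap, and the log2 fold was -0.81 ± 0.15 (edgeR adjusted p = 0.00326). This call held without each library in turn, with folds between -1.09 and -0.57. It ended with flanks of 10 kb (-0.37, edgeR adjusted p = 0.302) and with no flanks (-0.45, adjusted p = 0.329).

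One distal site held most of the Gfi1b signal. At +30.3 kb, past the far end of the gene (chr2:28591301-28591860), it had 14.6 and 17.7 CPM in pDCs, against 31.4 and 25.1 CPM in cDCs. The site lay 17.8 kb outside the gene span, and the locus also reaches Cel, Gtf3c5 and Tsc1. This site made up 67.7% and 68.7% of the locus signal in pDCs, against 79.0% and 76.1% in cDCs, and stood at the 99.3 percentile of all sites by mean CPM. It was called higher in cDCs (-0.81 ± 0.23, edgeR adjusted p = 0.00837), and the call ended without cDC replicate 1 (-0.64, adjusted p = 0.0823) and without cDC replicate 2 (-0.96, adjusted p = 0.0604). Over the printed Gfi1b promoter (chr2:28621801-28622110) the site had 5.41 and 7.08 CPM in pDCs, against 8.05 and 8.38 CPM in cDCs, without overlap but not called (-0.41 ± 0.26, edgeR adjusted p = 0.564).

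Gfi1, which acts in stem cells, lymphocytes and granulocytes, was not called as a locus, with 48.1 and 70.0 CPM in pDCs, against 56.2 and 65.4 CPM in cDCs (-0.05 ± 0.19, edgeR adjusted p = 0.884). The cDC values lay between the pDC ones. The log2 fold of the locus turned positive without pDC replicate 1 (0.20) and without cDC replicate 2 (0.07). Its strongest site, at +17.3 kb, had 2.77 and 7.08 CPM in pDCs, against 3.66 and 5.96 CPM in cDCs (-0.01 ± 0.35, edgeR adjusted p = 1.00). The site at +44.3 kb (chr5:107681401-107681560) was called higher in pDCs, with 3.56 and 3.22 CPM in pDCs, against 0.823 and 0.864 CPM in cDCs (1.99 ± 0.44, edgeR adjusted p = 0.00766). Its replicates lay close together in both cell types, and with totals as library sizes it stood above the input in pDCs but not in cDCs, whereas library sizes from the repeat windows put it above the input in cDCs as well. The call ended without cDC replicate 1 (1.95, edgeR adjusted p = 0.105) and without cDC replicate 2 (2.02, adjusted p = 0.0971).

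Myb had the highest mean signal of the members and was 1.25-fold higher in pDCs. The locus had 313 and 269 CPM in pDC replicates 1 and 2, against 235 and 233 CPM in cDC replicates 1 and 2, with no overlap (0.32 ± 0.10, edgeR adjusted p = 0.0404). The call ended without pDC replicate 1 (0.20, adjusted p = 0.0648), cDC replicate 1 (0.32, adjusted p = 0.319) or cDC replicate 2 (0.31, adjusted p = 0.304). It also ended when windows had to average 30 counts (0.26, edgeR adjusted p = 0.110) and with the TMM factors of the windows (0.37, adjusted p = 0.0542), an alternative chosen after seeing the data. With flanks of 10 kb the Myb log2 fold was 0.83 (edgeR adjusted p = 0.0307).

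Of the 14 Myb sites 3 were called, all higher in pDCs, on both sides of the gene. Past its far end lay a pair at +83.3 kb, inside the span of Ahi1, a ciliary protein gene, and at +77.2 kb. The site at +83.3 kb (chr10:21077501-21077760) had 6.33 and 5.63 CPM in pDCs, against 2.56 and 2.42 CPM in cDCs (1.26 ± 0.31, edgeR adjusted p = 0.0158). The site at +77.2 kb (chr10:21083651-21083860) had 5.54 and 5.95 CPM in pDCs, against 2.47 and 2.76 CPM in cDCs (1.13 ± 0.31, edgeR adjusted p = 0.0163), and it was the only one of the 12 sites called higher in pDCs where replicate 2 was the higher pDC library. Upstream, on the side where known erythroid enhancers of Myb lie, the site at -37.4 kb (chr10:21198301-21198510) had 7.91 and 4.99 CPM in pDCs, against 2.29 and 3.37 CPM in cDCs (1.20 ± 0.32, edgeR adjusted p = 0.0389). The groups overlapped at none of the 3 sites. The call at +83.3 kb ended without cDC replicate 1 or 2 (1.30 and 1.22, edgeR adjusted p = 0.158 and 0.267), and that at +77.2 kb without cDC replicate 1 (1.04, adjusted p = 0.309). The call at -37.4 kb ended without pDC replicate 1, cDC replicate 1 or cDC replicate 2 (0.81, 0.94 and 1.50, edgeR adjusted p = 0.394, 0.452 and 0.0842) and with library-size scaling (1.07, adjusted p = 0.0797).

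Strong upstream sites of Myb were not called. The strongest, at -46.6 kb, had 10.4 and 13.8 CPM in pDCs, against 11.5 and 11.4 CPM in cDCs (0.07 ± 0.24, edgeR adjusted p = 1.00). Almost as strong, the site at -31.7 kb had 20.3 CPM in pDC replicate 1 and 7.56 CPM in pDC replicate 2, against 10.7 and 8.38 CPM in cDCs, so that 1 pDC library lay above and 1 below both cDC libraries (0.57 ± 0.30, edgeR adjusted p = 0.518). At -40.0 kb the order was the other way, with 5.67 and 6.76 CPM in pDCs, against 9.24 and 10.3 CPM in cDCs, without overlap and not called (-0.66 ± 0.26, edgeR adjusted p = 0.110). Inside the gene, the site at +7.28 kb had 8.18 and 6.11 CPM in pDCs, against 3.20 and 4.06 CPM in cDCs, and just missed the threshold (0.98 ± 0.29, edgeR adjusted p = 0.0502). These last 3 sites were named after their values were seen.

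Meis1, the homeobox partner of HOX proteins in stem cells, was not called as a locus, although it held the member site with the smallest adjusted p. The locus had 336 and 214 CPM in pDCs, against 248 and 183 CPM in cDCs, and the groups overlapped (0.35 ± 0.18, edgeR adjusted p = 0.189). Replicate 1 was the higher one in both cell types. The log2 fold of the locus was 0.64 without pDC replicate 2, 0.58 without cDC replicate 1 and -0.01 without pDC replicate 1. Each of these fits has a lone library in the cell type concerned.

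The strongest of all 82 sites lay at +93.9 kb inside Meis1 (chr11:18924951-18925310), at the 99.9 percentile of all sites. It had 49.98 and 25.3 CPM in pDC replicates 1 and 2, against 40.3 and 22.5 CPM in cDC replicates 1 and 2, and was not called (0.27 ± 0.28, edgeR adjusted p = 0.878). As in the locus, replicate 1 exceeded replicate 2 in both cell types. The site's log2 fold was 0.67 without pDC replicate 2, -0.31 without pDC replicate 1 and -0.10 without cDC replicate 2.

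The site at +22.0 kb inside Meis1 (chr11:18996851-18997110) was higher in pDCs, with 9.63 and 6.76 CPM in pDCs, against 0.640 and 2.68 CPM in cDCs, from 73 and 42 counts, against 7 and 31. The groups did not overlap, and the log2 fold was 2.29 ± 0.39 (edgeR adjusted p = 0.000278). This was the only member site called without every library in turn that also passed the Wald test of DESeq2 (2.30, adjusted p = 0.00356). Its size depended on the cDC libraries, with a log2 fold of 1.61 without cDC replicate 1 and 3.65 without cDC replicate 2, and the call ended with library sizes from the repeat windows (1.77, edgeR adjusted p = 0.0535). The site held 11.3% and 12.1% of the locus signal in pDCs, against 1.38% and 5.91% in cDCs. Another site, at +48.8 kb, named after its values were seen, had 13.6 and 9.81 CPM in pDCs, against 7.68 and 5.62 CPM in cDCs, without overlap and not called (0.83 ± 0.26, edgeR adjusted p = 0.0971).

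Hhex, a homeobox gene needed for early lymphoid and other progenitors, had near equal locus signal in the cell types but sites called in both directions. The locus had 244 and 237 CPM in pDCs, against 221 and 228 CPM in cDCs, a narrow gap without overlap (0.10 ± 0.09, edgeR adjusted p = 0.485). Within the span without flanks the log2 fold was -0.36, and with flanks of 10 kb -0.01, neither called. Its strongest site, at +13.6 kb (chr19:37448251-37448610), had 25.3 and 21.6 CPM in pDCs, against 21.1 and 20.6 CPM in cDCs (0.17 ± 0.22, edgeR adjusted p = 1.00). Near the known +1 enhancer inside the gene, the site at +1.06 kb had 3.56 and 3.06 CPM in pDCs, against 3.20 and 4.32 CPM in cDCs (-0.18 ± 0.34, edgeR adjusted p = 0.745).

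Farther downstream of Hhex lay 3 called sites, 2 higher in pDCs and 1 higher in cDCs. Between the latter and the former, a site at +29.9 kb, named after its values were seen, was not called (0.37 ± 0.33, edgeR adjusted p = 0.933). The site at +31.9 kb (chr19:37466601-37466860) had 5.93 and 2.90 CPM in pDCs, against 3.02 and 1.55 CPM in cDCs (0.98 ± 0.39, edgeR adjusted p = 0.0447), and here the groups overlapped. The next one, at +32.4 kb (chr19:37467051-37467310), had 6.07 and 4.66 CPM in pDCs, against 2.65 and 1.90 CPM in cDCs (1.25 ± 0.34, edgeR adjusted p = 0.0230). The call at +31.9 kb ended without pDC replicate 1 (0.35, edgeR adjusted p = 0.504), without cDC replicate 2 (0.57, adjusted p = 0.605), with library-size scaling (0.86, adjusted p = 0.0641) and by the strongest window alone (adjusted p = 0.0803). The call at +32.4 kb ended without pDC replicate 1, cDC replicate 1 or cDC replicate 2 (1.04, 1.49 and 1.02, edgeR adjusted p = 0.0861, 0.117 and 0.322).

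In the other direction, the Hhex site at +26.6 kb (chr19:37461401-37461560), named after its values were seen, had 0.527 and 0.161 CPM in pDCs, against 2.56 and 2.51 CPM in cDCs. These values come from 4 and 1 counts in pDCs, against 28 and 29 in cDCs and 3 in the input. It was called higher in cDCs (-2.77 ± 0.60, edgeR adjusted p = 0.00399) with or without each library, from -3.87 when pDC replicate 1 was left out to -2.24 when pDC replicate 2 was. The site was weaker than the median site and did not stand above the input in either cell type with totals as library sizes, but did in cDCs with library sizes from the repeat windows.

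**Figure D2:**
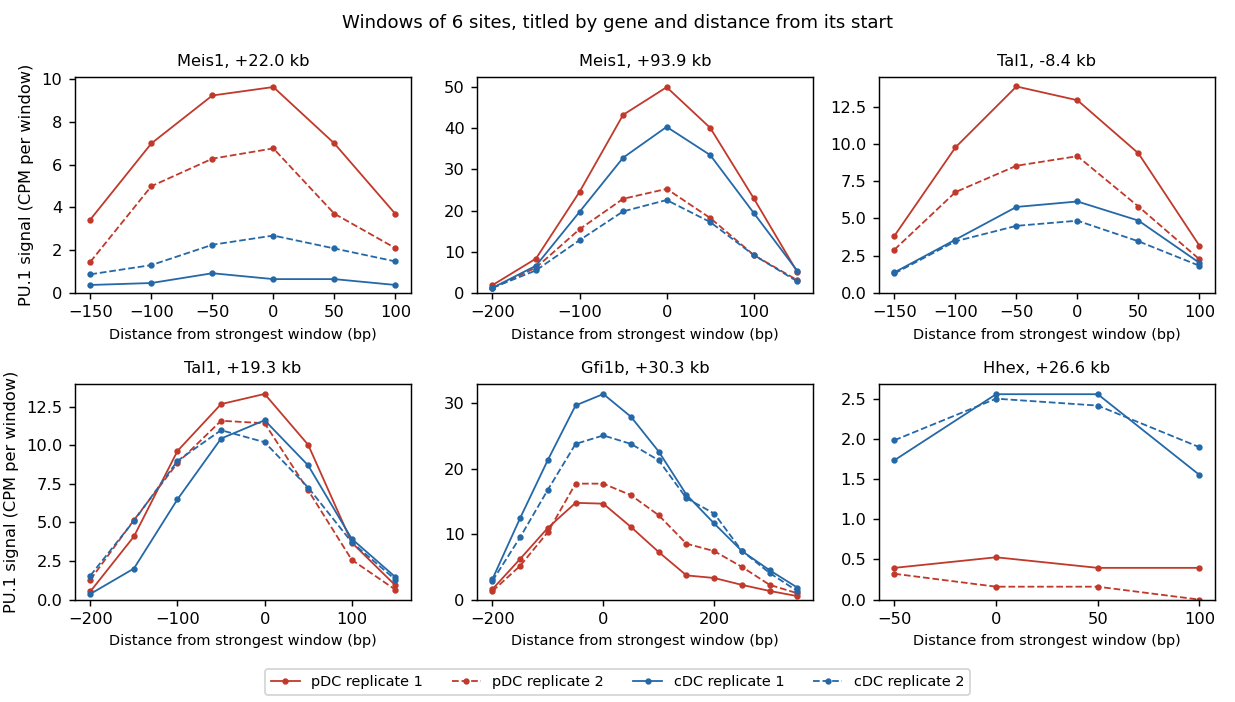
PU.1 signal in each window (y axis, CPM, linear scale that differs between panels) against the distance from the strongest window (x axis, bp) at 6 sites, with 1 line per library. The pDC lines lie above the cDC lines at Meis1 +22.0 kb and Tal1 -8.4 kb and below them at Gfi1b +30.3 kb and Hhex +26.6 kb, while at Tal1 +19.3 kb they run together and at Meis1 +93.9 kb replicate 1 is the higher line of each cell type.

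Over the 10 loci, 12 of 82 sites were higher in pDCs, beside 8.46% of all 60527 sites, and 3 were higher in cDCs, beside 6% of all sites. The 12 sites lay in 7 loci and the 3 in Gata2, Gfi1b and Hhex. The strongest window of both pDC libraries lay above both cDC libraries at 29 of the 82 sites, beside 29% of all sites, and the other way round at 14, beside 28.4%. Of the site folds 51 were above zero and 31 below, and their median was 0.28, against 0.03 over all sites. By window, 56 of 419 were higher in pDCs, beside 7.99% of all windows, and 18 in cDCs, beside 6.36%. At 11 of the 12 sites called higher in pDCs, replicate 1 was the higher pDC library, beside 80.3% over all sites called higher in pDCs, and at 10 of them replicate 2 lay between replicate 1 and both cDC libraries. The part of this library in the calls was tested only by leaving it out, in a fit with a lone pDC library. Site calls ended without pDC replicate 1, cDC replicate 1 or cDC replicate 2, and none ended without pDC replicate 2. The number of calls over all sites also dropped without each of the former libraries and rose without pDC replicate 2. Whether calls ended more often at the member sites than at other sites was not tested. With the Wald test of DESeq2 on the windows 14 of the 15 site calls ended, all but Meis1 at +22.0 kb. Over all sites that test called 1458 higher in pDCs and 427 in cDCs, against 5123 and 3634 in the main fit. With library sizes from the repeat windows 13 ended, all but the weak Gata2 and Hhex sites, beside 1029 and 3850 calls over all sites.

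**Figure D3:**
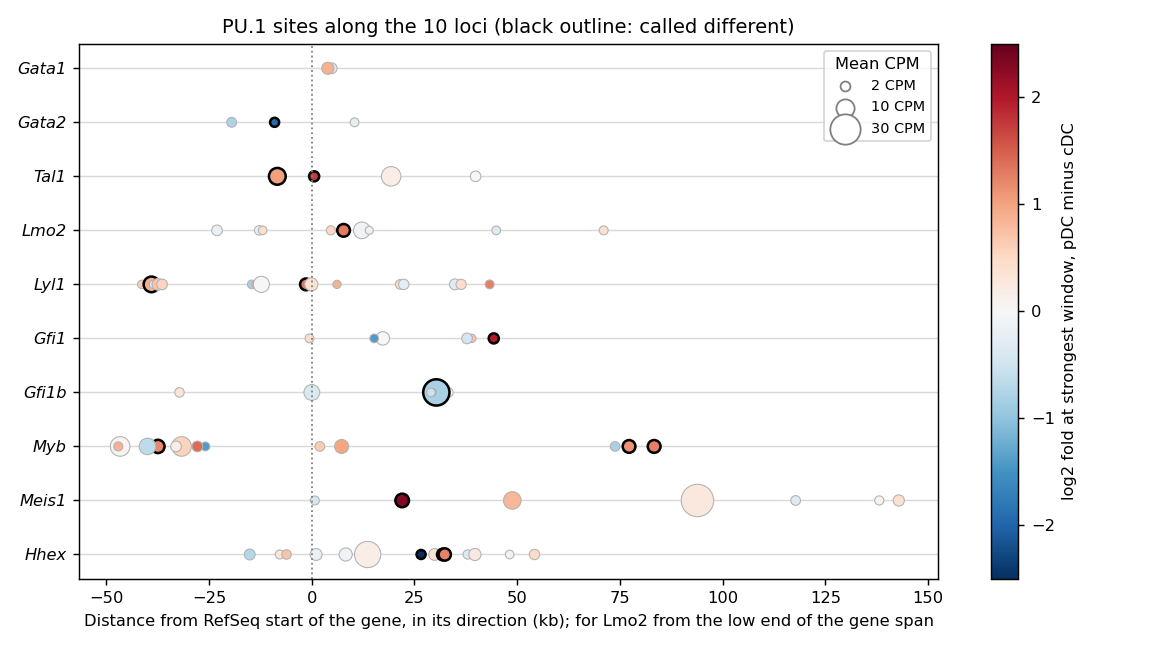
Each of the 82 sites by its distance from the gene start (x axis, kb, in the gene's direction), 1 row per gene; circle size gives the mean CPM of the strongest window, colour its log2 fold (pDC minus cDC), and a black outline marks a called site. For Lmo2, whose start was not matched, the distance is from the low end of the gene span. Called sites lie on both sides of the starts. Of the widest circles, those at Meis1 +93.9 kb and Hhex +13.6 kb are pale and without an outline. The circle at Gfi1b +30.3 kb, about as wide as that of Hhex, has a black outline.

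Most member sites lay away from the genes' starts. There were 18 sites inside the span of their own member, 17 inside another gene's span and 47 in no gene span. Only 4 of 82 sites lay over a promoter of any gene, beside 7.88% of all sites. The sites had the same median width as all sites, 210 bp, and a median of 2.33 CPM, against 2.08 CPM over all sites. Of the strongest sites of the 10 loci, Gfi1b at +30.3 kb was the only one called. The 10 sites within the top 10% of all sites by signal were spread over Tal1, Lmo2, Gfi1b, Myb, Meis1 and Hhex.

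With totals as library sizes, PU.1 signal stood above the input at 40 of the 82 sites in pDCs, beside 41.5% of all sites, and at 34 in cDCs, beside 45.7%. Library sizes from the repeat windows, which hold 74.6% of the input counts, put 77 of the sites in pDCs and all 82 in cDCs above the input, so both counts depend on the scaling, and the values that follow are those with totals. A site counted as above the input where any window passed at an edgeR adjusted p below 0.05 and at least 2-fold, in a fit that gives the lone input the same spread as the PU.1 libraries. Both criteria were met in both cell types at 29 sites and in neither at 37. The strongest windows of the member sites had from 0 to 5 input counts. All 12 sites called higher in pDCs stood above the input in pDCs, and 4 of them also in cDCs: Tal1 at -8.37 kb, Lyl1 at -39.0 kb, Myb at +83.3 kb and Hhex at +31.9 kb. The same PU.1 counts gave the calls and the comparison with input, so the latter is no separate support for the calls. Of the 3 sites called higher in cDCs, only Gfi1b at +30.3 kb stood above the input in cDCs with totals, and all 3 did with library sizes from the repeat windows.

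**Figure D4:**
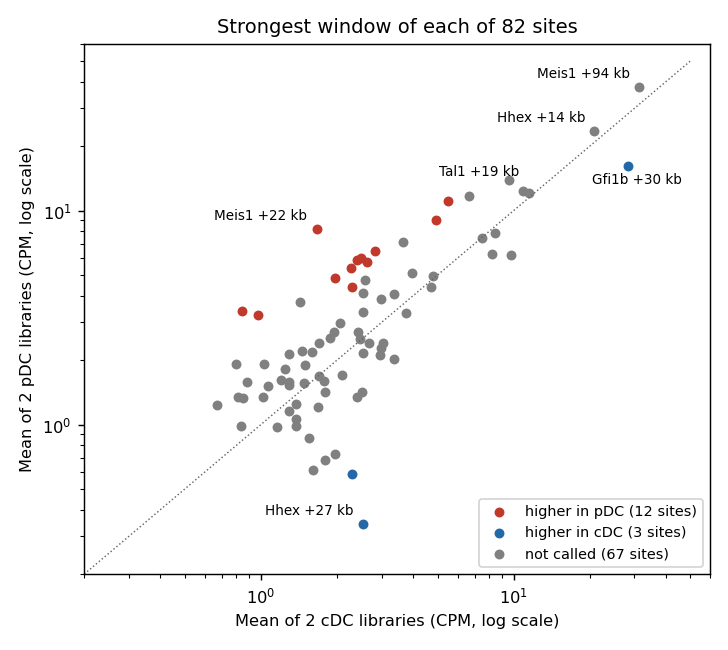
Mean CPM of the strongest window in pDCs (y axis, log scale) against that in cDCs (x axis, log scale) for the 82 sites, 1 point per site, with the line of equal values dotted and colours for called sites. The 12 sites called higher in pDCs lie above the line at low to middle signal, and of the 3 strongest sites only Gfi1b +30 kb is coloured, below the line.

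Other genes of the same regulatory network were counted in the same fit, from lists written with earlier results of these data known. Of 27 tested loci of other stem and progenitor factors, 7 rose in pDCs relative to cDCs, 2 fell and 18 passed in neither direction, with a median log2 fold of 0.07, and over all loci 11.4% rose and 10.6% fell. The 7 became 0 with library sizes from the repeat windows, where 22 of all 17719 loci were higher in pDCs, against 2037 in the main fit. They became 3 when windows had to average 30 counts, beside 1594 of all 14065 loci. Their number also dropped without cDC replicate 1 or 2, as it did over all loci. The 2 that fell became 0 with library sizes from the repeat windows, where 46 of all 17719 loci were higher in cDCs, against 1878 in the main fit. They became 0 by nearest gene and 1 with flanks of 10 kb and for the gene span alone. Their number dropped without cDC replicate 1 or 2 and rose without pDC replicate 2, as it did over all loci. Those with the smallest p were Mycn, a MYC relative (2.97 ± 0.55), Mecom, a stem cell zinc-finger gene (0.82 ± 0.15), Myc itself (-0.67 ± 0.14), Hlf (1.20 ± 0.26) and Ldb1, which binds LMO2 in the TAL1 complex (-0.50 ± 0.11), with edgeR adjusted p = 0.00350, 0.00366, 0.00575, 0.00830 and 0.00991. The Mycn locus rests on 2 windows, with 55 and 23 counts in pDCs, against 7 and 8 in cDCs. Of 19 tested loci of erythroid, megakaryocyte and mast cell genes, the lineages where GATA1 and TAL1 act, 1 rose in pDCs, 5 fell and 13 passed in neither direction, with a median log2 fold of -0.09, beside the same 11.4% and 10.6% of all loci. The 5 that fell became 0 with library sizes from the repeat windows, 1 for the gene span alone, 2 with flanks of 10 kb and 3 by nearest gene. They became 3 when windows had to average 30 counts, where 1697 of all 14065 loci were higher in cDCs. Their number dropped without cDC replicate 1 or 2, again as over all loci. The mast cell genes Mcpt4 (-1.21 ± 0.15), Kit (-0.72 ± 0.13) and Tpsb2 (-0.83 ± 0.22) and the progenitor gene Cd34 (-0.84 ± 0.22) were lower in pDCs (edgeR adjusted p = 0.000446, 0.00343, 0.0192 and 0.0196). Other mast cell genes of the list, named after their values were seen, were not called: Cpa3 (0.11), Hdc (-0.04), Ms4a2 (-0.29) and Fcer1a (-0.47). Of the genes named, Ldb1, Tpsb2 and Cd34 lost their call without cDC replicate 1 (-0.52, -0.67 and -0.88), and Mecom, Hlf, Ldb1, Tpsb2 and Cd34 without cDC replicate 2 (0.73, 1.09, -0.49, -0.99 and -0.80).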

How the data were processed

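PU.1 ChIP-seq and input libraries of 49 bp single-end reads were analysed from read counts per window. The authors deposited these counts unscaled, as whole numbers whose totals differ between libraries. The submitters' processing notes name Subread 1.4.4 and build mm10, without the step that Subread did. Read extension, read filters and the choice of windows, not given in the sources used here, shape the counts as well. Every listed window has 33 counts or more summed over the 5 libraries.

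Windows kept by filterByExpr (minimum count 10) were tested in edgeR 4.0.16 (quasi-likelihood test, R 4.3.3). The model used TMM factors and a term for cell type only, with Benjamini-Hochberg adjustment at 0.05 over all windows, sites or loci. Log2 folds are pDC minus cDC, with an SE computed from the F statistic. Site p-values combine window p-values by the Simes method, with sites split at 5000 bp. The printed fold is that of the window with the highest mean CPM. A locus sums its tested windows over a span from RefSeq (GRCm38.p6; 21887 genes, GenomicRanges 1.54.1), with TMM factors from the locus table and library sizes from the tested windows. A window can count for several genes. No exons were used, so positions are inside or outside a gene span. The fit over input used all 5 libraries with totals over windows as library sizes, and the input from cDCs served both cell types. An exact permutation test of 2 libraries against 2 cannot go below p = 0.333 (two-sided), so no single value was tested alone. The labels call the replicates biological, and p-values reflect the spread between these samples only.

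Alternatives covered scaling, the filter on low counts, DESeq2 1.42.0, each library left out, locus flanks, site joining and the input fold. The statistics were tested on simulated data. Members and gene lists were chosen with earlier results of these data known. Named were all members, the strongest site of each locus, called sites at or above the median site CPM, and for other lists the called genes with the 5 smallest p, of which a gene of the erythroid list is not reported here. Sites over member promoters and at known enhancers were added, and other additions are named as such.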

Additional observations from a re-analysis of the deposited data

How the results depend on the processing

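No member call ended with DESeq2 size factors, with windows joined at 50 or 500 bp or with no filter on low counts, and an input fold of at least 4 kept both counts above the input. With no filter Gata2 was gained, so that 2 loci were higher in cDCs. Library-size scaling left 0 loci higher in pDCs and 2 in cDCs, and turned the uncalled strongest sites of Lyl1 (-0.12) and Myb (-0.058). Library sizes from repeat windows left 0 loci either way, 0 sites and 1 window higher in pDCs, 11 windows higher in cDCs, and 0 genes of both other lists either way. They turned the Lmo2 (-0.34), Lyl1 (-0.023), Myb (-0.11) and Hhex (-0.36) loci and the strongest sites of Tal1 (-0.31), Lyl1 (-0.46), Myb (-0.51), Meis1 (-0.10) and Hhex (-0.33), and put 77 sites in pDCs and 82 in cDCs above the input. Windows that average at least 30 counts gave 1 locus and 23 windows higher in pDCs, 1 site higher in cDCs, 3 other factors higher in pDCs and 3 erythroid list genes higher in cDCs, and Lyl1's strongest site was at -0.025. Flanks of 10 kb gave 0 member loci, 1 other factor and 2 erythroid list genes higher in cDCs and 0 erythroid list genes higher in pDCs, with Hhex at -0.011. The gene span alone gave 0, 1, 1 and 0 of the same, with Hhex at -0.36 (Gfi1 had no testable span). By nearest gene 0 member loci were higher either way, 0 other factors higher in cDCs, and 0 and 3 erythroid list genes higher in pDCs and cDCs. Windows at least 2-fold over input gave 2 loci higher in cDCs. DESeq2's Wald test gave 1 site and 4 windows higher in pDCs, 0 and 3 in cDCs, and log2 folds of -0.00102 for Lyl1's and 0.0184 for Gfi1's strongest site. Replicate numbers did not pair the samples (correlation of replicate differences 0.02 over windows), and with the replicate block no member call was lost, Meis1 was gained (0.33, edgeR adjusted p = 0.0270), and Lyl1's strongest site was at -0.021. Leaving out 1 library gave 2 to 21 sites higher in pDCs and 1 to 8 in cDCs, 9 to 99 windows and 4 to 31, 0 to 4 loci and 1 to 2, 2 to 9 other factors and 1 to 7, and 1 to 2 erythroid list genes and 2 to 7. Log2 folds then ran from -0.34 to 0.25 at Lyl1's strongest site, -0.80 to 0.55 at Gfi1's, -0.14 to 0.27 at Myb's and -0.31 to 0.74 at Meis1's, and from -0.34 to 0.20 for the Gfi1 and -0.013 to 0.64 for the Meis1 locus. With a library left out, the number of calls over all sites and over all loci moved as well. Alternatives for the other lists were added after seeing the data. The causes were not tested.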

Other observations

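Counting precision sets limits for the weak sites: the strongest windows of the 82 member sites hold as few as 1 count in a library, and the pDC totals are the smaller ones. Sequencing depth is unknown, and the input has 2776490 counts over windows, of which 74.6% fall in repeat windows, so few input counts are left elsewhere to compare with. No input of pDCs was analysed here. A site within 50 kb of a member is not thereby a site that acts on it, and 17 of the 82 sites lie inside the span of another gene.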
